A study of Mus musculus with 15 samples.

Results

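Cohesin is the protein ring that holds sister chromatids together, and shugoshin protects it at centromeres until the chromatids are to part. The set described here is 10 mouse genes chosen by name: the cohesin subunits Smc3, Smc1a, Smc1b, Rad21, Rad21l, Rec8 and Stag3, the release factor Wapl, the shugoshin Sgo2a and the separase gene Espl1. They were followed across 15 single oocytes, 6 of them mature eggs arrested in the second meiotic metaphase (MII) and 9 fully grown oocytes of the germinal vesicle stage (GV), which are still in meiotic prophase. Of the 28785 gene IDs with counts in any oocyte, 9 belonged to these genes. Rec8, the kleisin on which oocyte cohesion rests, is not analysed here.

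The oocytes came from female mice whose genotype and strain the labels do not give. For MII, a 7 IU injection of pregnant mare serum gonadotropin (PMSG) was followed about 48 h later by 7 IU of human chorionic gonadotropin, and the eggs were taken from the oviduct after another 20 h and stripped of cumulus cells with 300 IU/mL hyaluronidase; no age is given for these mice. For GV, females aged about 6 to 8 weeks received the same PMSG dose and were used 44 h later. Each library was 1 oocyte, made by MATQ-seq, a single-cell method that primes and amplifies total RNA. The labels name no mouse, so each stage counts as 1 sample here, no test was made, and differences are given by size beside the spread between oocytes.

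The cohesin ring is built from Smc3, an Smc1 protein and a kleisin, and a Stag protein binds the kleisin. Germ cells add meiotic versions of these parts: Smc1b for Smc1a, Rec8 and Rad21l for Rad21, and Stag3 for Stag1 and Stag2. In mouse oocytes, cohesin loaded before birth has to last until ovulation. Separase then cuts Rec8 along the arms at the first division, while Sgo2, with its partner phosphatase PP2A, shields the centromeric cohesin that joins the sister chromatids of an MII egg.

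Total counts were 808641 to 2348281 per MII oocyte and 3687610 to 7103063 per GV oocyte. An unnamed feature, ENSMUSG00000119584, took 15.7% to 61.2% of the counts in MII oocytes. In GV it took 0% in each of GV1 to GV6 and 3.43% to 11.2% in GV7 to GV9. Where it is high, it lowers the CPM (counts scaled to a common total) of every other gene. A gene is called measured here if it reached 5 CPM or more in whichever stage was higher, which 10090 genes did. For the median measured gene the log2 ratio MII/GV was −0.98 in CPM, −0.31 with that feature left out of the totals and −0.11 with TMM factors. Ratios below are therefore given relative to that median gene wherever they are called relative. The GV files form a Y set (GV1 to GV6) and an E set (GV7 to GV9), named after the first letter of their headers, whose meaning the labels do not give. The headers of all MII files begin with a lower-case e, and the labels do not say how these files relate to the E set. A difference of stage and one of file set can therefore not be told apart. Values against each GV set are given for genes whose side of a threshold or direction depends on the set. All 13 oocyte markers had counts in both stages. The 15 cumulus and granulosa markers summed to 17.6 to 85.1 CPM in MII oocytes and 101 to 344 CPM in GV oocytes. Foxl2, Amh, Inha, Inhba, Hsd17b1 and Ptx3 were at 0 in every MII oocyte, Ptx3 with only 2 counts in GV. Foxl2, Amh and Ptx3 were also at 0 in every oocyte of the E set, while Foxl2 and Amh reached 20.4 and 23.7 CPM in the Y set. Hsd17b1 reached 0.471 CPM in the E set and 11.1 CPM in the Y set. Inha and Inhba had counts in both sets, up to 26.0 and 0.814 CPM in the E set and 145 and 12.7 CPM in the Y set. Cyp19a1 (15.6 CPM in MII, 17.1 in GV) and Nr5a2 (31.3 and 83.8 CPM) had counts in all 6 MII oocytes. The remaining markers of this list had 1 to 9 counts each in MII. The part of these markers in the values below was not tested.

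Promoter sequence is shown for the meiotic genes whose shares of a paralog family are compared below. The stretches, from RefSeq on GRCm38.p6, are those of the paralogs Smc1b and Smc1a over the same distance from the start of the gene (−74 to −15, chr15:85131972-85132031 on the minus strand and chrX:152016354-152016413 on the plus strand), and that of Stag3 further upstream (−200 to −141, chr5:138280309-138280368, plus strand). Capitals mark TTCCCGC, a motif of the kind E2F factors bind, in Smc1b, the CCAAT box (here on the other strand, as ATTGG) in Smc1a, and CACGTG, an E-box, in Stag3.
Smc1b promoter: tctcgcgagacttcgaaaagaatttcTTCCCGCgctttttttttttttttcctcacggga
Smc1a promoter: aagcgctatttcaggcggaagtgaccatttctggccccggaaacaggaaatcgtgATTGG
Stag3 promoter: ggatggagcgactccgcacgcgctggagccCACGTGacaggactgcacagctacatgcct
Searched on both strands in the 250 bases before the start, TTCCCGC was present in 1 of the 8 genes with both counts and a promoter sequence, Smc1b, and in 3.82% of 32851 promoter windows. CACGTG was present in 2 of the 8, Stag3 and Espl1, and in 6.02% of the windows. The CCAAT box was present in 6 of the 8 and in 33.8% of the windows. These matches describe the letters only.

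Stored oocyte mRNAs are often governed at their 3′ ends, where a cytoplasmic polyadenylation element (TTTTAT or TTTTAAT, capitals below) lies ahead of the poly(A) signal. Among the 8 genes of the set with an annotated 3′ end in GENCODE M21, Sgo2a, on chromosome 1, was the only one with such an element in the last 100 transcript bases, searched on the mRNA strand, against 17.8% of 19907 genes. The 30 bases shown run from −75 to −46 counted back from the end of its transcript, and a poly(A) signal (AATAAA or ATTAAA) followed at −24.
Sgo2a 3′ end: acttatgtatcaTTTTATcattaattctct
A poly(A) signal was found in 6 of these 8 genes and in 78.3% of all genes searched.

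The SMC core of the ring was present at both stages, and its meiotic paralog Smc1b had the lowest relative ratio of the 7 genes that were measured. Smc3, the subunit common to every cohesin ring, lay at 18.7, 65.5 and 146 CPM in MII oocytes (lowest, median and highest) and at 57.7, 92.5 and 265 CPM in GV oocytes. The ranges overlapped, 3 MII oocytes lay below every GV oocyte in CPM and 2 in relative level, and GV2 stood far above the rest. Smc3 summed to 585 counts in MII and 4493 in GV, a relative log2 ratio of 0.23 ± 0.96, where the error, here and below, is the oocyte-to-oocyte SD of MII and that of GV combined. In CPM the same gene was lower in MII, at 60.7 CPM against 102 CPM in GV (ratio 0.593, exact Poisson 95% interval 0.544 to 0.647).

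Smc1a, the mitotic partner of Smc3, lay at 12.7, 28.7 and 58.5 CPM in MII oocytes and at 33.9, 66.5 and 103 CPM in GV oocytes. In CPM the ranges overlapped, with 3 MII oocytes below every GV oocyte (2 in relative level) and all of the E set below every oocyte of the Y set. The relative log2 ratio was −0.25 ± 0.68, with −0.41 against the Y set and 0.20 against the E set.

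Smc1b, the Smc1 of meiotic cohesin, lay at 0, 1.15 and 13.6 CPM in MII oocytes and at 3.52, 10.6 and 21.3 CPM in GV oocytes. Apart from MII1 and MII2, every MII oocyte lay below every GV oocyte, while MII1 was above 8 of the 9. Only 25 counts stood behind the MII sum, 11 of them in MII1, against 465 counts in GV. The relative log2 ratio was −1.02 ± 1.33, with −1.02 against the Y set and −1.14 against the E set; without MII1 it was −1.68, and without MII4 it was −0.75. Thinned to the 808641 counts of the shallowest oocyte, Smc1b was still seen in 4 of 6 MII oocytes and 8 of 9 GV oocytes.

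Within an oocyte, a share of paralog counts does not depend on the scaling between oocytes. Smc1b made up 8.45% of the Smc1 counts in MII (25 of 296, exact binomial 95% interval 5.54% to 12.2%) and 13.8% in GV (465 of 3377, 12.6% to 15.0%). Per oocyte the share was 0%, 3.99% and 25.0% in MII (lowest, median and highest) and 4.84%, 16.4% and 23.8% in GV. In 4 of 6 MII oocytes it lay below every GV oocyte, and MII1 had the highest share of all 15. The difference of −5.32 percentage points between the stage sums was smaller than the spread between oocytes, 10.8 points. With counts divided by exon length, the Smc1b shares of the stage sums were 11.6% in MII and 18.5% in GV.

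**Figure D1:**
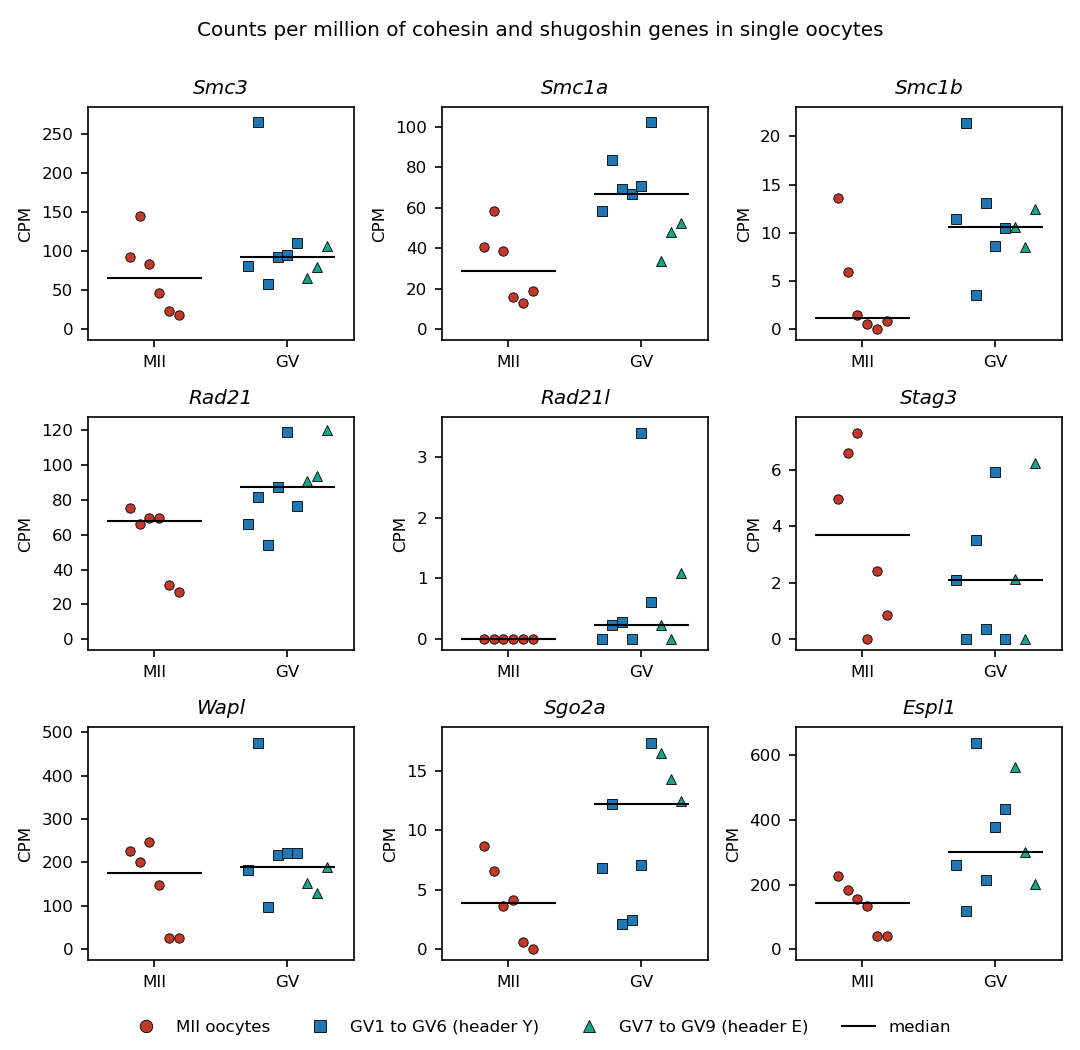
CPM of 9 cohesin and shugoshin genes in each oocyte, MII oocytes (circles) left and GV oocytes right (squares GV1 to GV6, triangles GV7 to GV9), with the stage median as a line. The ranges of both stages overlap for every gene shown, and MII5 and MII6, the rightmost circles, are low for most genes.

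Of the kleisins, the mitotic Rad21 was abundant and the meiotic Rad21l was near the limit of detection. Rad21 lay at 27.3, 67.9 and 75.4 CPM in MII oocytes and at 54.2, 87.6 and 120 CPM in GV oocytes. In CPM, MII5 and MII6 lay below every GV oocyte, and the other MII oocytes, at 66.4 to 75.4 CPM, were within the GV range. In relative level 0 MII oocytes lay below every GV oocyte and 1, MII4, lay above. The relative log2 ratio of Rad21 was 0.28 ± 0.49 (507 counts in MII, 3768 in GV) and −0.08 against the E set. In CPM it was lower in MII, at 52.6 CPM against 85.8 CPM in GV.

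Rad21l, a kleisin of early meiotic prophase, had 0 counts in MII and 31 in GV, of which 20 were in GV5. It was seen in 6 of 9 GV oocytes. Its 0.706 CPM in GV, taken as exact, was 2.27-fold above a floor of 3 counts over all MII oocytes (0.311 CPM). The exact interval of the CPM ratio MII/GV, which covers counting error in both stages, ran from 0 to 0.576. In CPM the median measured gene was itself at a log2 ratio of −0.98. Without GV5, Rad21l had 11 counts in GV (0.290 CPM), below that floor, and a difference was not detectable at this depth.

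Stag3, the Stag subunit of meiotic cohesin, was scarce at both stages. It lay at 0, 3.69 and 7.28 CPM in MII oocytes and at 0, 2.08 and 6.24 CPM in GV oocytes, with counts in 5 of 6 MII oocytes and 6 of 9 GV oocytes. The ranges overlapped, with MII2 and MII3 above every GV oocyte. In CPM, Stag3 was at 3.11 in MII (30 counts) and 2.37 in GV (104 counts), a ratio of 1.31 whose exact interval, 0.845 to 1.99, includes a ratio of 1. Its relative log2 ratio was 1.39 ± 1.61, on a gene under the 5 CPM limit of a measured gene.

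The somatic paralogs of Stag3 lay below the median gene in MII. Stag2 had 21 counts in MII and 599 in GV, a relative log2 ratio of −1.63 ± 1.47. Stag1 had 44 counts in MII and 703 in GV, a relative log2 ratio of −0.81 ± 1.67 (−0.64 against the Y set and −1.32 against the E set). Stag3 thus made up 31.6% of all Stag counts in MII (30 of 95, 22.4% to 41.9%) and 7.40% in GV (104 of 1406, 6.08% to 8.89%). Per oocyte the share was 0%, 31.4% and 100% in MII, the last in MII5 from 4 counts in all, and 0%, 3.55% and 32.1% in GV. Above every GV oocyte were 3 MII oocytes, MII2, MII3 and MII5. The difference between the stage sums, 24.2 percentage points, was smaller than the spread between oocytes, 37.5 points, and it was 20.4 to 29.0 points with any single oocyte left out. With counts divided by exon length, which differs between the paralogs, the Stag3 shares of the stage sums were 45.5% in MII and 12.1% in GV.

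**Figure D2:**
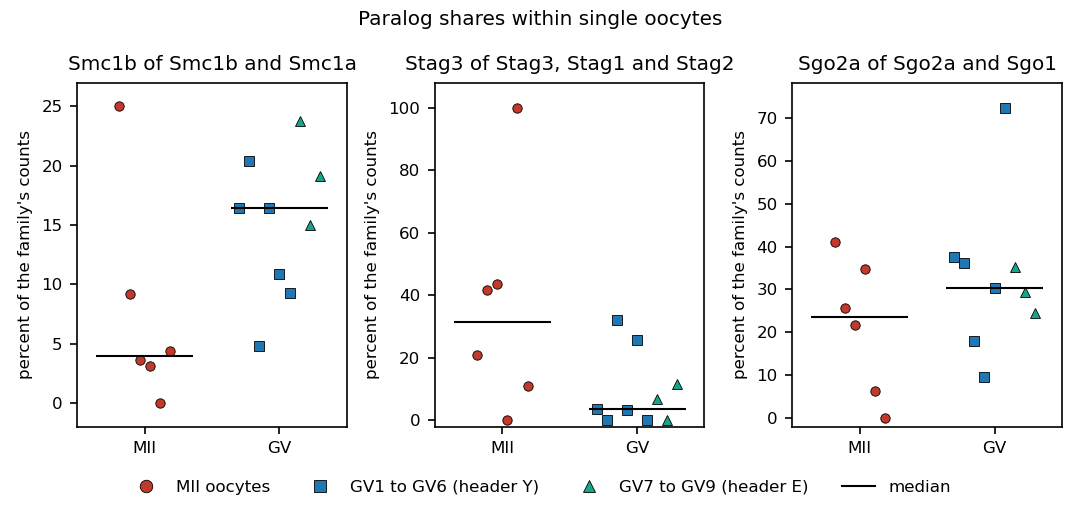
Share of a family's counts held by Smc1b, Stag3 and Sgo2a in each oocyte, in percent, MII left of GV, symbols as in the plot of CPM by oocyte and lines at the medians. The Stag3 share reaches 43.5% in MII3 and 100% in MII5, against at most 32.1% in a GV oocyte, and the stages overlap in all 3 panels.

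The genes that open the ring or guard it were among the best and the least covered of the set. Wapl, which releases cohesin from chromosome arms, lay at 25.6, 175 and 248 CPM in MII oocytes and at 96.7, 189 and 476 CPM in GV oocytes. In MII1 to MII4 it was within the GV range, MII5 and MII6 lay below every GV oocyte, and GV2 was again the highest. Its relative log2 ratio was 0.29 ± 1.26 (1220 counts in MII, 8966 in GV), while in CPM it was lower in MII, at 127 CPM against 204 CPM in GV. Cdca5 (sororin), which opposes Wapl, was at 224 CPM in MII and 296 CPM in GV, a relative log2 ratio of 0.59 ± 0.69 that was 0.87 against the Y set and −0.11 against the E set. Wapl held 36.1% of the counts of this pair in MII and 40.9% in GV, where it was 47.6% in the Y set and 26.4% in the E set, so that the direction depended on the set. The share was 10.2% in MII5 and 11.2% in MII6, against 41.6% to 49.7% in the other MII oocytes; this pair was chosen after its values were seen.

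Espl1 encodes separase, the protease that cuts the kleisin. It had 1095 counts in MII, where Wapl had more, and 16061 in GV, the most of the set at that stage. Its levels were 40.0, 144 and 228 CPM in MII oocytes and 117, 300 and 640 CPM in GV oocytes. The ranges overlapped, with MII5 and MII6 lowest and GV3 highest. The relative log2 ratio was −0.70 ± 1.11, and −0.44 without GV3. Pttg1, which encodes securin, the inhibitor that keeps separase inactive, had a relative log2 ratio of −0.98 ± 1.65, but 0.13 against the Y set and −2.42 against the E set.

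Sgo2a, the shugoshin that protects centromeric cohesin in mouse oocytes, lay at 0, 3.89 and 8.66 CPM in MII oocytes and at 2.11, 12.2 and 17.3 CPM in GV oocytes. MII5 and MII6 were the lowest of all 15 oocytes in CPM, at 1 and 0 counts, while in relative level 1 MII oocyte lay below every GV oocyte. From 31 counts in MII and 409 in GV, the relative log2 ratio was −0.53 ± 1.36, with −0.20 against the Y set and −1.30 against the E set. Leaving out both MII5 and MII6 gave −0.09. Its paralog Sgo1 had a relative log2 ratio of −0.04 ± 1.03, which was 0.41 and −0.96 against the same sets of GV oocytes. Sgo2a made up 25.0% of the counts of both shugoshins in MII and 32.1% in GV, or 15.3% and 20.4% with counts divided by exon length. These counts are uncertain: 35.0% of the exon bases of Sgo2a overlap Kctd18 on the opposite strand, and the use of strand in counting is not given. Of the 50-base windows of the Sgo2a transcript, 48.3% (2363 of 4890) also occur in transcripts of Kctd18 or Sgo2b. Sgo2b itself shares only 131 of its 3690 windows with Kctd18 or Sgo2a, so most of the 2363 windows are shared with Kctd18.

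Ordered by level per exon length, the set divided into an abundant and a scarce group. In GV the order of CPM per kb was Espl1 at 41.8, Wapl at 30.8, Rad21 at 20.3, Smc3 at 18.5, Smc1a at 11.5, Smc1b at 2.62, Sgo2a at 1.33, Rad21l at 0.426 and Stag3 at 0.413. In MII it was Wapl at 19.1, Espl1 at 13.0, Rad21 at 12.4, Smc3 at 11.0, Smc1a at 4.88, Smc1b at 0.641, Stag3 at 0.543, Sgo2a at 0.459 and Rad21l at 0. Neighbours in these orders overlapped between oocytes, apart from the step between Smc1a and Smc1b in GV: single GV oocytes spanned 5.88 to 17.8 CPM per kb for Smc1a and 0.870 to 5.27 for Smc1b. In MII the same step overlapped, at 2.21 to 10.1 CPM per kb for Smc1a and 0 to 3.36 for Smc1b, with MII1 at the top for Smc1b.

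**Figure D3:**
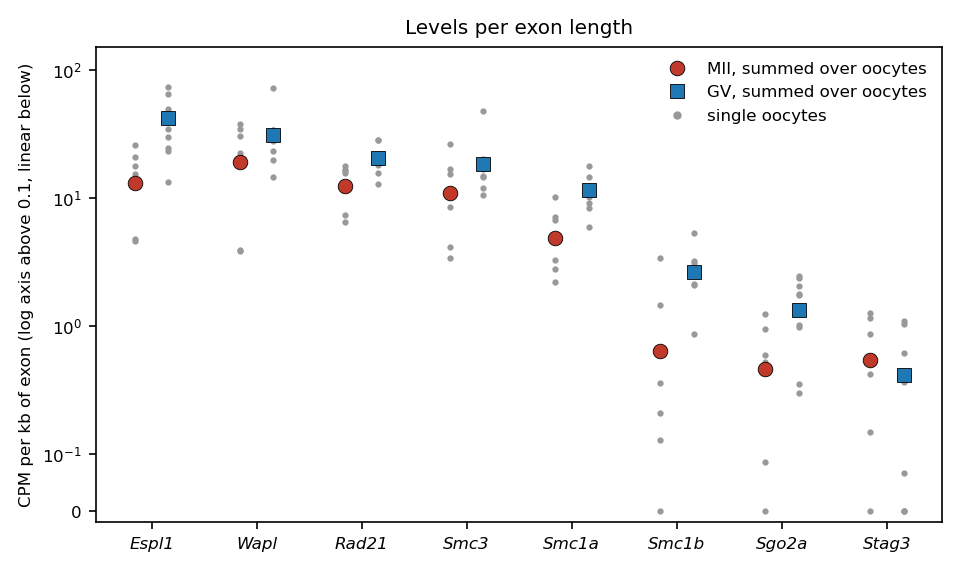
CPM per kb of exon for 8 genes ordered by their level in GV, with MII (circle) left of GV (square) as stage sums and single oocytes in grey, on a log axis that is linear below 0.1. Espl1, Wapl, Rad21, Smc3 and Smc1a lie between 4.88 and 41.8 as stage sums, and Smc1b, Sgo2a and Stag3 between 0.413 and 2.62; Rad21l is left out.

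Of the 10 genes, 7 passed the 5 CPM limit, and Stag3 and Rad21l did not. Smc1b (2.60 CPM in MII, 10.6 in GV) and Sgo2a (3.22 and 9.32 CPM) passed it through GV only, the stage where they were higher. Stag3, higher in MII, was under it at both stages (3.11 and 2.37 CPM), so the rule bears on the counts below. Smc1b was at least 2-fold lower in MII relative to the median gene, 1 of 7, where 15.5% of all measured genes were, and 0 of 7 were at least 2-fold higher, where 12.1% were. Smc1b lay at the edge of that threshold. Leaving out any 1 of MII3, MII4, MII5, MII6, GV2, GV7 or GV9 brought the count to 0, and against the E set alone it was 2, with Sgo2a added. The other 6 genes lay within 2-fold. The median relative log2 ratio was −0.25, beside 0 for all measured genes by construction and quartiles of −0.59 and 0.54. Per oocyte, the median relative level of the 7 genes was 0.93, 1.71 and 2.06 on the log2 scale in MII (lowest, median and highest) and 0.97, 1.57 and 1.98 in GV. No measured gene of the set had MII and GV ranges that did not overlap, in CPM or in relative level, where 4.65% of measured genes had every MII oocyte below every GV oocyte in CPM and 0.0892% above, with 0.684% below and 1.61% above in relative level.

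**Figure D4:**
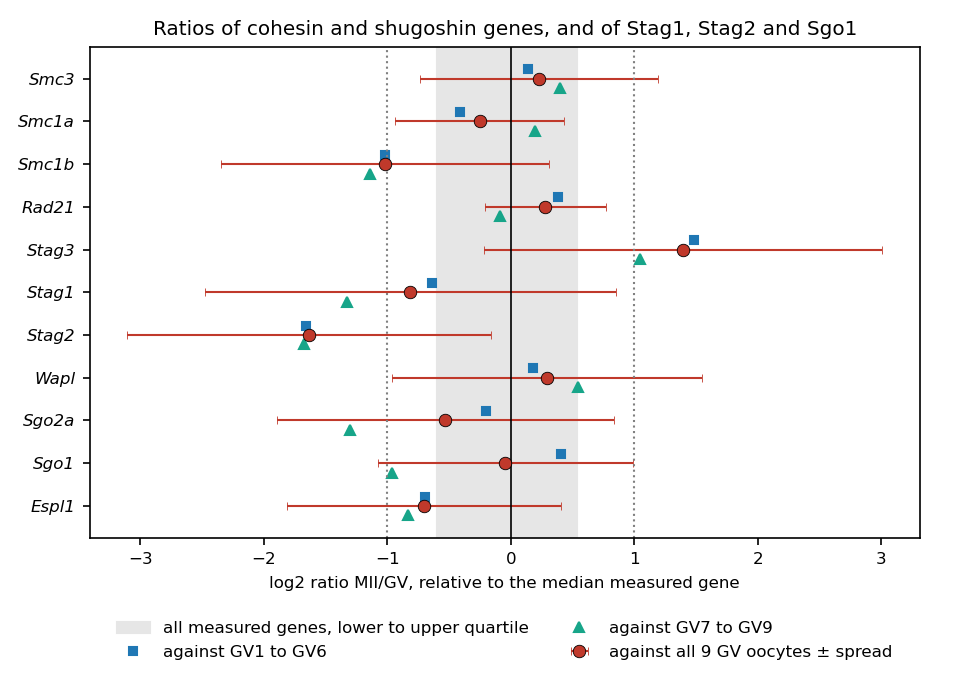
Log2 ratio MII/GV relative to the median measured gene for the cohesin and shugoshin genes and the paralogs Stag1, Stag2 and Sgo1, against all GV oocytes (circles, with the combined SD between oocytes as bars), the Y set alone (squares) and the E set alone (triangles). The grey band runs from −0.59 to 0.54, the quartiles of all measured genes, and dotted lines mark 2-fold; only the bar of Stag2 among the measured genes shown stays clear of 0.

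Other genes of the cohesin pathway, the loaders, acetyltransferases, release and protection factors, had the same median, −0.25 over the 17 of 20 that were measured. Lower by at least 2-fold was Stag2 (−1.63), and higher was Ctcf (1.11 ± 1.78; 1.24 against the Y set and 0.69 against the E set), which encodes the DNA-binding protein that halts cohesin; the other 15 lay within 2-fold. Nipbl, the cohesin loader, was at 99.2 CPM in MII and 234 CPM in GV, a relative log2 ratio of −0.25 ± 1.41 (−0.08 against the Y set and −0.77 against the E set). Cdca5 had the most counts of this list. As a background for this list and those below, the 2-fold limit was passed downward by 15.5% and upward by 12.1% of all measured genes.

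Kinases and PP2A subunits that act on Rec8 cleavage were 12 of 13 measured, with a median relative log2 ratio of 0.04. Higher by at least 2-fold were 3, Ppp2r5d (1.35 ± 0.74), a PP2A regulatory subunit, Csnk1e (1.18 ± 0.92; 0.95 against the Y set and 1.97 against the E set), a casein kinase and the gene with the most counts of the list, and Plk1 (1.16 ± 0.39), the polo-like kinase. Lower were 2, Ppp2r5a (−1.73 ± 0.88, but −0.56 against the E set), another PP2A regulatory subunit, and Bub1 (−1.08 ± 1.55; −0.92 against the Y set and −1.56 against the E set), the kinase that marks centromeres for shugoshin. Plk1 and Bub1, picked out after their values were seen, each separated the stages on 1 scale and not on the other. For Plk1 all 6 MII oocytes lay above every GV oocyte in relative level, as for 1.61% of measured genes, but in CPM 3 lay above and 1 below every GV oocyte. For Bub1 all 6 lay below every GV oocyte in CPM, as for 4.65% of measured genes, but 5 did so in relative level. Condensin and Smc5/6, which are built on related SMC proteins, had a median of −0.13 over 14 genes, from Smc4 (−1.01 ± 1.24; −1.10 against the Y set and −0.85 against the E set), which also had the most counts, to Smc5 (0.92 ± 1.59; 0.74 against the Y set and 1.42 against the E set). Of these, 1 was at least 2-fold lower and 0 higher. Whether the counts of the kinase and condensin lists differ from the background of 15.5% lower and 12.1% higher was not tested.

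Among MII oocytes, MII5 and MII6 had the lowest relative levels of Smc3, Rad21, Sgo2a, Wapl and Espl1. For Smc1a, MII4 was lowest, followed by MII5 and MII6. Smc1b was lowest in MII5 (0 counts) and MII4 (1 count), and Stag3 in MII4 (0 counts) and MII6 (2 counts), placings that rest on very few counts. The median relative level of the 7 measured genes was 1.25 in MII5 and 0.93 in MII6, against 1.67 to 2.06 in MII1 to MII4. Measured genes with 4 to 9 kb of exons, which covers every measured gene of the set, had a median relative level of 0 and 0.06 in those libraries and 0.27 to 0.41 in MII1 to MII4. Genes under 2 kb had −0.18 and −0.45, against −1.27 to −1.05. The same 2 libraries had the highest share of the unnamed feature, 52.6% and 61.2%. What sets them apart was not tested. Without both, the median relative log2 ratio of the set was −0.09, and that of Smc1b was −0.65. Among GV oocytes, GV4 and GV8 had long genes at 0.04 and 0.14 and short genes at −0.25 and −0.49, and the set at 1.43 in each.

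**Figure D5:**
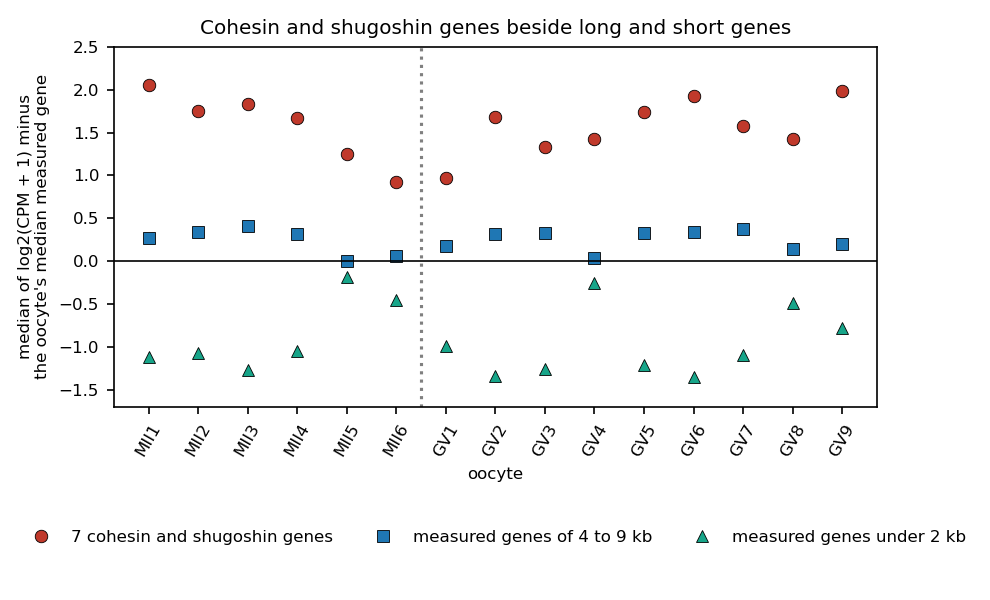
Median relative level per oocyte, as log2(CPM + 1) with the median measured gene of the same oocyte subtracted, for the 7 measured cohesin and shugoshin genes (circles), 4266 measured genes of 4 to 9 kb (squares) and 1510 under 2 kb (triangles), MII oocytes left of the dotted line. In MII5, MII6, GV4 and GV8 long and short genes lie closest together, and the set is lowest in MII6 and GV1.

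Across all 15 oocytes, Smc3 and Wapl had the closest relative levels of any pair in the set, with a Pearson correlation of 0.86, to which GV2 at the top and MII5 and MII6 at the bottom contribute. The protein-coding genes most like Sgo2a, among 4142 with at least 20 CPM in both stages, were Rev3l (0.96), a DNA polymerase subunit, Dmxl2 (0.90) and Rictor (0.88), a component of the kinase complex mTORC2. These correlations describe oocytes that share stage, file set and the length-related contrast above, and carry no test.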

How the data were processed

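Raw counts for each Ensembl gene, as deposited by the authors in a file for each oocyte, were the starting point. Per the submitters' processing notes, cutadapt 4.0, STAR 2.7.10a and GRCm39 were used; how reads were counted (tool, annotation, strand, multi-mapping reads) was not given in the sources used here. Each library held 1 oocyte, with no cell barcodes. A gene not listed in a file was taken as 0 counts. Symbols came from gene tables (28402 of 28785 IDs) and exon lengths from GENCODE M21. The 10 genes, the lists and the rule for named genes were chosen with earlier results of these data known. The rule named all 10 genes, their paralogs Stag1, Stag2 and Sgo1, for each other list the genes with the most counts and the lowest and highest ratio, and the 3 genes most like Sgo2a.

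Counts were summed per stage after the 15 oocytes were grouped by labelled stage, 0.5 was added to each sum, and log2 ratios of CPM were taken relative to the median measured gene (5 CPM or more in either stage). The spread combines the SDs of both stages of log2(CPM + 1) relative to the oocyte's median gene. Intervals are exact Poisson or Clopper-Pearson at 95% and, like the floor of 3 counts, cover counting error only, since PCR reads are not independent molecules. No pair of the 51 same-stage pairs agreed within sampling noise (lowest chi-square per degree of freedom 7.26). Markers of theca and stroma, blood and immune cells and oviduct epithelium summed to at most 24.3, 7.89 and 0.657 CPM in an MII oocyte and 27.2, 36.6 and 18.3 CPM in a GV oocyte. Alternatives used edgeR 4.0.16 (TMM) and DESeq2 size factors only, with no test; the ratio code was checked on simulated counts. Rec8 is not analysed here, so its share of kleisin counts and the genes most like it were not computed. The Sgo2a share was not among the planned results, and the Wapl and Cdca5 pair and ratios relative to long genes were added after the data were seen.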

Additional observations from a re-analysis of the deposited data

Results flagged for a closer look

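In 29 groups of values looked at, 6 had a highest oocyte separated from the rest by more than Dixon's 95% limit allows. Chance flags about 1 in 20 groups if the groups are independent and their values normally distributed. The groups here share oocytes, as with GV2 below, so 6 of 29 cannot be set against that rate. In MII, Stag2 reached 11.1 CPM in MII1, against 3.64 CPM in the next oocyte. The Smc1b share of Smc1 counts was 25.0% in MII1 and 9.18% in the next MII oocyte. In GV, GV2 held both Smc3 at 265 CPM, with the next GV oocyte at 111 CPM, and Wapl at 476 CPM, with the next at 223 CPM. Rad21l stood at 3.38 CPM in GV5, with the next GV oocyte at 1.08 CPM. Sgo2a made up 72.4% of the counts of Sgo2a and Sgo1 in GV6, with the next GV oocyte at 37.5%.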

How the results depend on the processing

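Over 17 results and 499 alternative values, 168 of 193 values of the main results kept to within the spread between oocytes or within 1.5 times the count. The ratios at least 2-fold from the median gene as reported, those of Smc1b, Stag3 and Rad21l, kept their sign, as did those of Espl1 and Sgo2a. Other ratios changed sign, Smc3 and Rad21 in 4 of 31 alternatives each, Wapl in 3 and Smc1a in 1. So did the median of the set in 2 and that of the other pathway genes in 1. With ratios of CPM from total counts, the median was −1.23 for the set and −1.23 for the other pathway genes, with 4 genes at least 2-fold lower. With totals without mitochondrially encoded genes the values were −1.25, −1.25 and 4. On these 2 scales the median measured gene itself lay at −0.98 and −0.99, close to 2-fold lower. The 15.5% of the relative scale is therefore no background for these 4 genes. The median of the set turned positive with filters at 1 CPM (0.11) and 20 CPM (0.12), and that of the other pathway genes without MII5 and MII6 (0.08). The count of genes at least 2-fold lower, 1 as reported, was 0 with means of CPM, thinning, filters at 1 or 20 CPM, without GV1 and GV2, or without MII5 and MII6, and 2 with totals without the unnamed feature, with no filter, or against GV7 to GV9. The count at least 2-fold higher, 0 as reported, was 1 (Stag3) with totals without that feature, a filter at 1 CPM or no filter. With single oocytes left out, the counts were 0 to 1 lower and 0 higher, the medians −0.45 to −0.10 for the set and −0.41 to −0.11 for the other pathway genes. Under such omissions the MII minus GV difference in share was −8.21 to −4.23 points for Smc1b, 20.4 to 29.0 for Stag3 and −9.77 to −3.02 for Sgo2a. Smc3, Rad21 and Wapl, above the median gene as reported, were lower in MII in CPM (−0.75, −0.70 and −0.69) and at −0.08, −0.04 and −0.02 without the unnamed feature. The ratios in CPM and without the unnamed feature are not relative to the median gene, which lay at −0.98 and −0.31 there. Filters also change which genes enter a median. Any other cause of these shifts was not tested. No paired analysis was possible because no test was made and the oocyte numbers pair no samples. Depth limits Stag3, Smc1b and Sgo2a, at 25 to 31 counts in MII, and Rad21l, at 0.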
